A study of Oryctolagus cuniculus with 8 samples.

Results

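The genes described here are decorin (DCN) and matrix Gla protein (MGP), a pair of secreted matrix proteins of mesenchymal cells, measured in 8 samples of cultured rabbit cells on 1-colour Agilent arrays. Their probes were chosen by identity: every probe that is not a control and whose transcript accession in the files belongs to rabbit DCN (NM_001082330) or MGP (NM_001082200). These are 2 of the 680 genes that have a named probe, with 15 of the 43603 probes, 6 for DCN and 9 for MGP, and all 15 were kept and tested. All cells came from Dutch rabbits, and each sample was 1 array. The ES group held the embryonic stem cell lines rdES4 and rdES2-1. Induced pluripotent stem (iPS) cells, which are body cells reprogrammed to a state like that of ES cells, were the line iPS-L1, made from liver cells and taken at passages 7 and 23, and the line iPS-S1, made from stomach cells and taken at passages 6 and 22. The somatic group was a culture of liver cells and a culture of stomach cells. The labels give stem cell medium for the ES and iPS cells and somatic cell medium for the liver and stomach cells, so cell type and medium cannot be told apart in any comparison with somatic cells. Apart from the names of lines and tissues, the labels do not tell whether the samples of a group were grown or taken separately, so p-values measure only the spread between these samples, which may be technical.

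Decorin is a small leucine-rich proteoglycan that binds collagen fibrils, governs their spacing and holds transforming growth factor beta in the matrix. Matrix Gla protein is a small secreted protein that is carboxylated by a vitamin K-dependent enzyme, binds bone morphogenetic proteins and keeps arteries and cartilage from calcifying. Both are typical products of fibroblasts, and matrix Gla protein is also made by vascular smooth muscle cells and chondrocytes.

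A level here is a log2 signal from which the array's 75th percentile was subtracted, so that 0 is that percentile. The percentile was a signal of 273.8 to 341.5 on the 6 ES and iPS arrays, but 163.8 on the liver and 154.8 on the stomach array. Probes well above background made up 62.39% to 64.66% of an ES or iPS array, 57.79% of the liver array and 58.43% of the stomach array. The lowest level that counted as well above background was -5.54 to -5.36 on the ES and iPS arrays, -4.53 on the liver and -4.65 on the stomach array. Levels of different probes are not set against each other as amounts of RNA, because probes differ in brightness for the same amount of RNA.

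DCN was bright in both somatic cultures and lay at background in ES and early passage iPS cells. All 6 probes were well above background in liver and in stomach cells, and none was on either ES array or either early iPS array. On each late iPS array 1 of the 6, A_04_P068850, was above background. The brightest DCN probe by the mean of the 8 arrays, A_04_P068847, stood at 4.44 in liver cells and 5.42 in stomach cells. There A_04_P000516 was brighter, at 4.85 and 5.82. The choice of A_04_P068847 thus rests on the 6 arrays where both probes were below background. In the ES lines A_04_P068847 stood at -6.64 (rdES4) and -6.06 (rdES2-1). In the iPS cells it stood at -7.50 (iPS-L1, passage 7), -5.70 (iPS-S1, passage 6), -6.10 (iPS-L1, passage 23) and -6.78 (iPS-S1, passage 22). The somatic arrays were thus far above the other 6, and the ES and iPS arrays, all below background for this probe, have no order among themselves. In bulk samples like these, fewer cells of a type and less RNA per cell cannot be told apart.

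**Figure D1:**
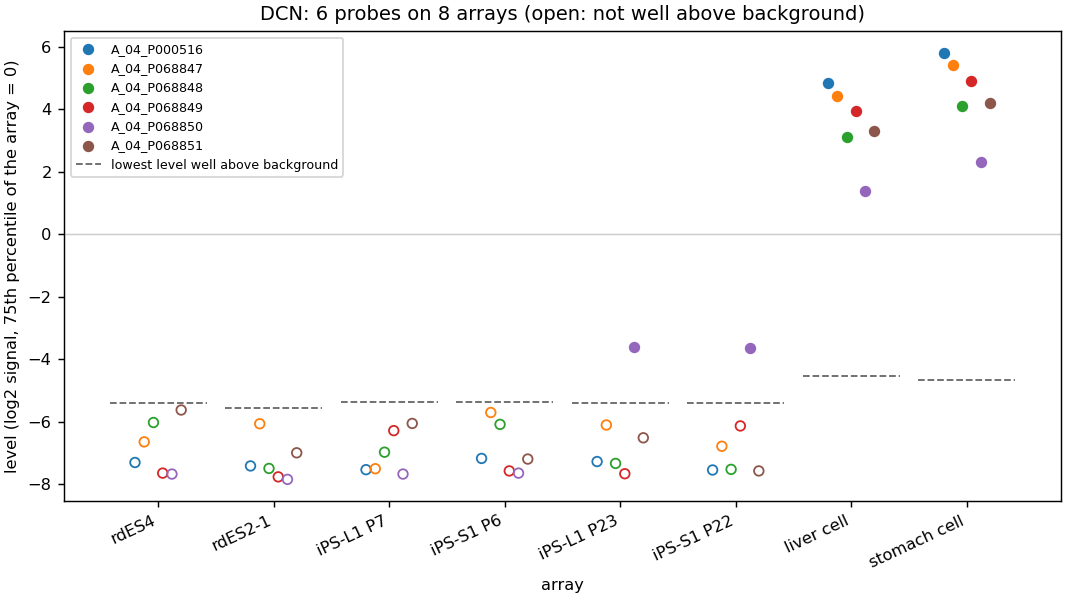
Level of each of the 6 DCN probes (log2 signal, 75th percentile of the array = 0) on the 8 arrays; open points are not well above background and dashes mark the lowest level that is. All 6 probes lie between 1.39 and 5.82 in the somatic cells, and among the ES and iPS arrays the filled points are those of A_04_P068850 at -3.59 and -3.63 in late passage iPS cells.

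In limma with Benjamini-Hochberg adjustment over all 28844 tested probes, all 6 DCN probes were lower in iPS than in somatic cells, where 32.4% of tested probes were called lower. The log2 differences ran from -12.71 to -7.48 with a median of -10.96, against a median of 0.019 over all tested probes, and the adjusted p-values from 6.71e-05 to 0.000245. For 5 of the 6 probes every iPS array was at background, so the fold is a lower bound there, taken against the lowest signal well above background. Those 5 entered the test only through the somatic arrays, where they are bright, so a call in the opposite direction was hardly possible. Their count is therefore no separate support. For those probes DCN was at least 508.9-fold to at least 1679-fold lower in iPS than in somatic cells, and for A_04_P068847 at least 1267-fold. With all dim arrays raised to that lowest signal, the median difference over the 6 probes was -9.47. With normexp background correction, which adds an offset of 50 to every signal, the 6 probes stayed called but the differences were smaller than these bounds, from -7.32 to -4.14 with a median of -6.35.

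ES cells gave the same picture for DCN. All 6 probes were lower in ES than in somatic cells, where 29.6% of tested probes were called lower, with log2 differences from -12.69 to -9.61 and a median of -10.82 against 0.07 over all tested probes. All 6 were below background in both ES lines, and the bounds ran from at least 159.4-fold to at least 1786-fold lower, with adjusted p-values from 6.02e-05 to 0.000274. A call of higher in ES cells was thus hardly possible, and the count of 6 is no separate support. For A_04_P068847 the bound was at least 1348-fold. With the dim arrays raised, the median difference was -9.56, and with normexp it was -6.21. The iPS and ES comparisons share their somatic samples.

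The DCN probe A_04_P068850, singled out here after its values were seen, was the exception among the 6. Its processed signal was 1.34 in rdES4, 1.35 in rdES2-1, 1.67 in iPS-L1 at passage 7 and 1.53 in iPS-S1 at passage 6. At late passage the signal was 28.3 in iPS-L1 and 24.0 in iPS-S1, against 429 in liver cells and 769 in stomach cells. Both late arrays thus lay above both early arrays and both ES arrays, and far below the somatic arrays. The level was -3.61 ± 0.025 (SD, n = 2) at late and -7.65 ± 0.024 (SD, n = 2) at early passage. Both early signals were below background, so the early SD does not measure how far the lines differed in DCN. The difference of 4.04 ± 0.29 (log2, SE) passed the threshold in limma with an adjusted p of 0.0386, and with the early arrays at background it amounts to at least 3.367-fold. Of all tested probes 0.0277% were called between passages, that is 8, and 0.00693%, that is 2, were called higher late. The other 5 DCN probes were not above background on any iPS array, so the late passage signal was seen with 1 of 6 probes of the gene. These 5 gave a stronger signal than A_04_P068850 in somatic cells, 1420 to 4740 in liver and 2670 to 8740 in stomach cells. Why A_04_P068850 alone was higher late was not tested. The call ended with normexp background correction, where the difference was 0.56 (adjusted p = 0.738), with no filter on dim probes (adjusted p = 0.0799), and with slide (adjusted p = 0.255) or iPS line (adjusted p = 0.121) as a block. It also ended when any 1 of the 6 ES and iPS arrays was left out, with adjusted p-values of 0.14 without either ES line, 0.189 and 0.0876 without the early array of iPS-L1 and of iPS-S1, and 0.183 and 0.259 without their late arrays.

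Between iPS and ES cells no DCN probe passed the test, nor did any other probe of the array (0% called in limma, 2140 of 28844 at an unadjusted p under 0.05). For A_04_P068850 both ES arrays and both early iPS arrays were at background. The mean over the iPS lines was higher than that of ES cells with an adjusted p of 0.42, by 2.13 ± 0.32 (log2, SE) as fitted and by 0.98 with dim arrays set to the detection floor. With the late arrays alone set against ES cells, a comparison added after the data were seen, the fitted difference was 4.15 (adjusted p = 0.0397) and 1.86 with dim arrays at the floor.

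MGP was also brightest in the somatic cultures, but unlike DCN it was measurable in most of the ES and iPS samples. All 9 probes were well above background in liver cells, stomach cells, both late iPS arrays and rdES4, and 8 of 9 were in rdES2-1. At early passage 6 of 9 were in iPS-S1 and 2 of 9, A_04_P002221 and A_04_P002222, in iPS-L1. The probe with the highest mean level, A_04_P003780, stood at 7.15 in liver cells and 5.18 in stomach cells. It stood at -0.98 in iPS-S1 at passage 22, -1.31 in iPS-L1 at passage 23, -1.91 in rdES4 and -2.95 in rdES2-1. The lowest levels were -4.37 in iPS-S1 at passage 6 and -6.01 in iPS-L1 at passage 7, the latter below background. In this order the somatic, late iPS, ES and early iPS arrays follow one another without overlap for this probe. The full order did not hold for every probe. Both late iPS arrays lay above both ES arrays for 9 of 9 probes, but both early arrays lay below both ES arrays for 5 of 9.

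**Figure D2:**
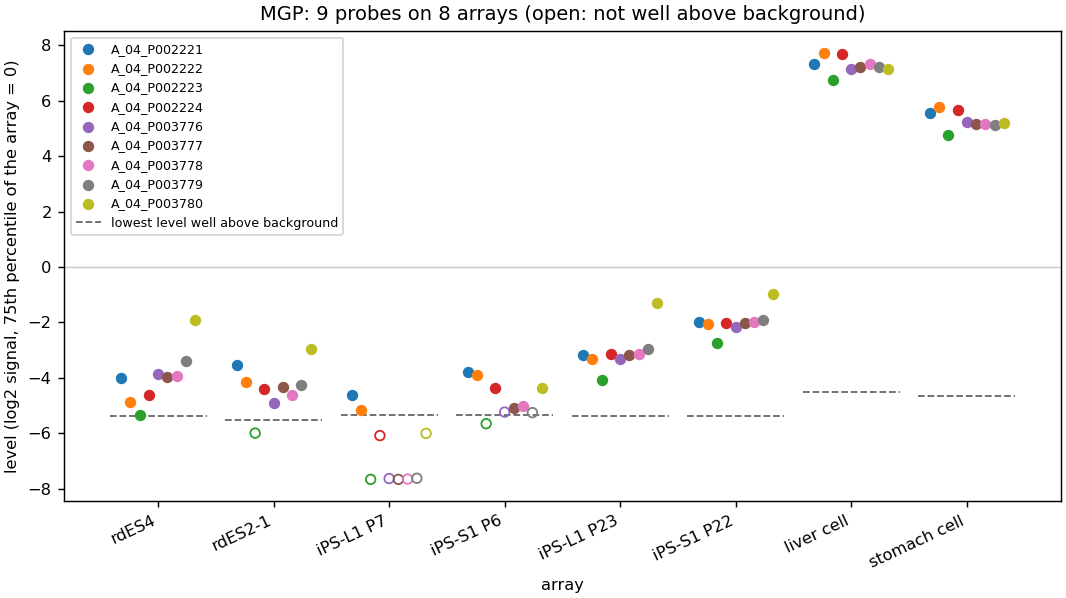
Level of each of the 9 MGP probes (log2 signal, 75th percentile of the array = 0) on the 8 arrays; open points are not well above background and dashes mark the lowest level that is. The array medians are 7.22 in liver and 5.18 in stomach cells, -2.02 and -3.17 in late passage, -5.01 and -7.63 in early passage iPS cells, and -3.96 and -4.35 in the ES lines.

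All 9 MGP probes were lower in iPS than in somatic cells, where 32.4% of tested probes were called lower, by log2 differences of -10.79 to -9.33 with a median of -10.61 and adjusted p-values in limma from 0.000337 to 0.000619. For A_04_P003780 the mean level was -3.17 ± 0.69 (SD, n = 2 lines) in iPS and 6.17 ± 1.4 (SD, n = 2) in somatic cells, a difference of -9.33 ± 0.78 (SE, adjusted p = 0.000534). With dim arrays set to the detection floor, which is that lowest signal, the 9 differences ran from -10.40 to -9.17. All 9 were also lower in ES than in somatic cells, where 29.6% of tested probes were, by -11.41 to -8.59 with a median of -10.53 and adjusted p-values from 0.000303 to 0.000679. Set against the tissue that each iPS line came from, MGP in iPS-L1 at passage 23 was 353-fold to 2140-fold lower than in liver cells, with a median over the 9 probes of 1400-fold. In iPS-S1 at passage 22 it was 71.5-fold to 227-fold lower than in stomach cells, with a median of 166-fold. Each of these compares a pair of arrays, with no replicate check.

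Within each iPS line MGP was higher at late than at early passage, with every one of the 9 probes and in both lines. In iPS-L1 the 2 probes above background at both passages were 2.74-fold and 3.61-fold higher at passage 23 than at passage 7, and the other 7 were at least 2.43-fold to at least 16.6-fold higher. In iPS-S1 the 6 probes above background at both passages were 1.81 to 3.39 higher on the log2 scale at passage 22 than at passage 6, with a median of 6.60-fold, and the other 3 at least 6.05-fold to at least 10.2-fold. With dim arrays set to the detection floor, 9 of 9 MGP probes and 1 of 6 DCN probes were at least 2-fold higher late in both lines, against 0.68% of the 27950 probes above background on any of these arrays. Within a line, the arrays of both passages lay on the same slide.

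The limma test of late against early passage did not call any MGP probe. The log2 differences of the 9 probes ran from 1.63 to 4.04 with a median of 3.70, against a median of -0.025 over all tested probes. With dim arrays at the detection floor they ran from 1.63 to 3.72 with a median of 2.57, and with normexp background correction from 0.55 to 1.65 with a median of 0.85. Both late arrays lay above both early arrays for 9 of 9, as they did for 19.8% of tested probes. Unadjusted p-values lay between 0.00237 and 0.059 and adjusted ones between 0.394 and 0.615, in a comparison in which 8 probes of the array passed and 2412 had an unadjusted p under 0.05. For A_04_P003780 the level was -1.15 ± 0.23 (SD, n = 2) late and -5.19 ± 1.2 (SD, n = 2) early, a difference of 4.04 ± 0.81 (SE, adjusted p = 0.394), with 1 of the early arrays below background.

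**Figure D3:**
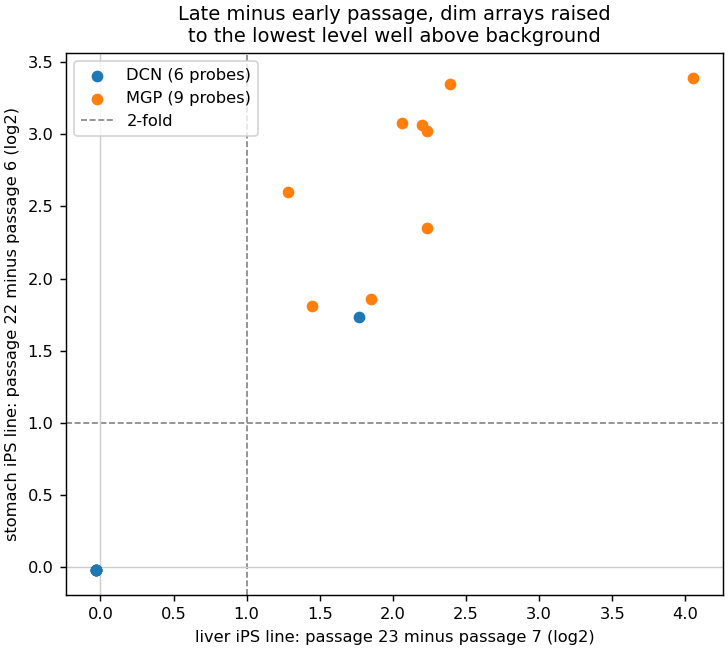
Late minus early passage (log2) in the liver iPS line (x axis, passage 23 minus 7) and the stomach iPS line (y axis, passage 22 minus 6) for each DCN and MGP probe, with dim arrays set to the lowest level well above background; dashed lines mark 2-fold. The 9 MGP probes lie at 1.28 to 4.05 and 1.81 to 3.39, 1 DCN probe lies at 1.77 and 1.73, and the other 5 DCN probes, below background at both passages, share a place next to 0.

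The iPS lines also differed from each other in MGP. At late passage all 9 probes were lower in iPS-L1 than in iPS-S1, by 1.25-fold to 2.49-fold with a median of 2.22-fold. At early passage 3 probes were below background in both lines and have no order. The 2 probes measured in both lines were then 1.80-fold and 2.41-fold lower in iPS-L1, and 4 more gave bounds of at least 1.22-fold to at least 2-fold lower. Where it could be ordered, MGP was thus lower in the liver line than in the stomach line at both passages, while liver cells had more than stomach cells. Of the probes above background on either array, 0.885% were at least 2-fold lower in iPS-L1 than in iPS-S1 at late and 1.57% at early passage. With 1 array of each line, tissue and passage, these orders have no replicate check. The lines lie on different slides, as do the tissues, so slide cannot be told apart from line or tissue in these orders.

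No difference in MGP between iPS and ES cells passed the test, at either passage or with both averaged. With both passages of a line averaged, the differences ran from -0.74 to 0.89 with a median of -0.15 and adjusted p-values from 0.854 to 0.986. For A_04_P003780 the difference was -0.74 ± 0.78 (SE). Comparisons of each passage with ES cells were added after the data were seen. The mean of the early arrays was below that of the ES lines with all 9 probes, by -2.76 to -0.04 (median -2.04, adjusted p 0.328 to 0.988). With dim arrays at the detection floor this was so for 8 of 9, with differences from -2.44 to 0.07 and a median of -0.89. The array of iPS-S1 at passage 6 lay above both ES lines for A_04_P002222 and A_04_P002224. The mean of the late arrays was above that of the ES lines with all 9 probes, by 1.21 to 2.24 (median 1.66, adjusted p 0.657 to 0.84), and by 1.21 to 2.01 with dim arrays at the floor. In the only line that shares a slide with an ES line, iPS-L1, all 9 probes were lower than in rdES4 at passage 7 and higher at passage 23, the latter by 0.41 to 1.54. At passage 7 the 2 probes above background on both arrays differed by -0.60 and -0.31. The other 7 were below background in iPS-L1 and at least 1.03-fold to at least 10.9-fold lower there than in rdES4.

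The 9 MGP probes fall into 2 runs by their numbers, A_04_P002221 to A_04_P002224 and A_04_P003776 to A_04_P003780, a grouping made after the values were seen. Both runs agreed in direction between tissues and between passages. In iPS-L1 none of the 5 probes of the second run and 2 of 4 of the first were above background early. With dim arrays at the detection floor, late minus early was 2.06 to 4.05 for the second run and 1.28 to 2.23 for the first. Between the ES lines the runs differed. The second run was higher in rdES4 than in rdES2-1 with 5 of 5 probes, by 0.38 to 1.05, whereas the first was lower in rdES4 with 3 of 4 probes and spanned -0.72 to 0.67. No order of the ES lines can therefore be given for MGP.

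Liver and stomach cells differed in opposite directions for the genes. All 6 DCN probes were lower in liver than in stomach cells, by 1.85-fold to 1.98-fold with a median of 1.96-fold, and all 9 MGP probes were higher in liver cells, by 3.42-fold to 4.45-fold with a median of 4.01-fold. At the 2-fold mark 0 of 6 DCN probes and 9 of 9 MGP probes passed, where 3.85% of probes were at least 2-fold lower and 3.97% at least 2-fold higher in liver cells. The SD of the liver minus stomach difference over all tested probes was 0.76 on the log2 scale. Within each gene the probes spanned less than that, from -0.99 to -0.89 for DCN and from 1.78 to 2.15 for MGP. With 1 array of each tissue there is no test, and since these arrays lie on different slides, tissue and slide cannot be told apart here.

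**Figure D4:**
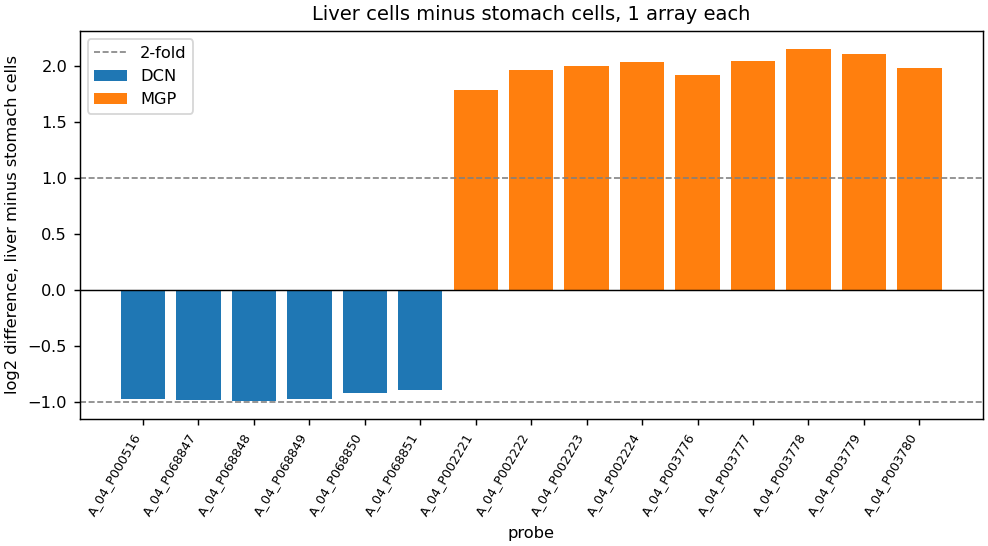
Difference in level (log2) between liver cells and stomach cells, 1 array each, for every DCN and MGP probe; dashed lines mark 2-fold in either direction. The 6 DCN bars lie between -0.99 and -0.89 and the 9 MGP bars between 1.78 and 2.15.

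Of the matrix proteins and partners of decorin and matrix Gla protein, few have a named probe on this array. The array names 1 of 12 other small leucine-rich proteoglycans, OGN (osteoglycin), which was lower in iPS than in somatic cells by -1.96 ± 0.24 (log2, SE, adjusted p = 0.00169 in limma) and in ES cells by -1.50. These are the values of its brightest probe, which was above background on every array and differed by 0.02 late minus early. Its 5 tested probes ran from -7.12 to -1.96 in iPS and from -6.88 to -1.16 in ES against somatic cells. Of 24 matrix proteins SPP1 (osteopontin, a phosphoprotein of mineralised tissue) was the only one tested, and it was lower by -6.47 ± 1.0 (adjusted p = 0.00416) in iPS and at least 87.21-fold in ES cells. VTN (vitronectin) was above background on too few arrays to be tested. No collagen of the list is named on the array, so the fibrils that decorin binds are not described.

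Among decorin's receptors and the growth factors it binds or signals with, 3 of 3 tested members were lower in iPS and in ES cells than in somatic cells, where 32.4% and 29.6% of all tested probes were. These were TGFB2, a transforming growth factor beta, at -3.58 ± 0.38, TLR2, an innate immune receptor that decorin engages, at -3.21 ± 0.17, and IGF1, insulin-like growth factor 1, at least 18.83-fold lower in iPS cells. IGF1 was below background on every ES and iPS array and entered the test only through the somatic arrays, so it could hardly be called higher. TLR4, the other named member of this list, was above background on too few arrays to be tested. Among the ligands of matrix Gla protein and genes of calcification, 2 of 2 were lower in iPS cells, beside the same 32.4%. BMP2, a bone morphogenetic protein that matrix Gla protein binds, stood at -5.14 ± 0.42, and ENPP1, which makes the calcification inhibitor pyrophosphate, at -3.35 ± 0.15. Of the vitamin K list, CALU (calumenin, an inhibitor of the carboxylase) was lower by -2.55 ± 0.13, while F10 (coagulation factor X, itself carboxylated) did not pass at -0.70 ± 0.39. In ES against somatic cells CALU was lower by -2.22 ± 0.13, and F10 did not pass at 0.33 ± 0.39. F7, the other named member of this list, was not tested. It was above background only in rdES4 (-2.47) and in iPS-S1 at passage 22 (-2.31), and in neither somatic culture. Over the 3 lists the adjusted p-values of the members called between iPS and somatic cells lay between 0.000129 and 0.00998 in limma.

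Of the enzymes that cut the matrix and their inhibitors, 5 of 6 tested members were lower in iPS than in somatic cells, where 32.4% of all tested probes were. TIMP1, an inhibitor of metalloproteinases, stood at -4.67 ± 0.36, CTSK, a collagen-cutting cathepsin, at -4.74 ± 0.22 and MMP2, a gelatinase, at -2.18 ± 0.20. MMP9 (-4.67 ± 1.5) and MMP14 (-1.89 ± 0.32) passed as well, the 5 with adjusted p-values from 0.00015 to 0.041, and MMP3 did not at -0.84 ± 0.60, with another of its probes pointing the opposite way. Represented by its brightest probe, no gene of these lists passed between passages or between iPS and ES cells. BMP2 stood at 1.23 ± 0.45 late minus early (adjusted p = 0.565) and SPP1 at 1.42 ± 1.2 (adjusted p = 0.824).

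Markers of other cells were read beside the late passage values of MGP and DCN. The array names 2 of 11 fibroblast markers, CAV1 and MMP2, whose summed signal, in units of the array's 75th percentile, was 2.58 to 3.12 at early and 1.56 to 1.94 at late passage, against 1.74 to 1.93 in ES and 26.6 to 33.7 in somatic cells. CAV1 (caveolin-1) was lower late by -3.14 ± 0.39 (adjusted p = 0.194), with all 7 of its tested probes in that direction and 1 of them called (A_04_P004337, -3.40, adjusted p = 0.0379). Like every call between passages, that call ended with no filter on dim probes and with slide or iPS line as a block. The 5 of 8 smooth muscle markers that are named summed to 42.5 to 49.3 at early and 30.7 to 32.0 at late passage, 25.3 to 35.8 in ES, 253 in liver and 98.0 in stomach cells. Both sums were lower at late passage, where MGP was higher, but their members did not move alike. MMP2 differed by -0.15 late minus early, and among the smooth muscle genes CALD1 by -0.69 (adjusted p = 0.669), TPM1 by -0.18 and ACTA2 by 0.16. TPM2 was above background on 1 of the 4 iPS arrays, an early one, and differed by -0.03 with dim arrays at the detection floor. MYH11 was below background on every iPS array. A sum is weighted towards its brightest probes, and on the iPS arrays CALD1 was the brightest of the smooth muscle probes. No chondrocyte or endothelial marker of the lists is named on the array, and the part of such cells in the MGP values was not tested. Pluripotency genes POU5F1 and PODXL were higher in iPS than in somatic cells by 10.89 ± 0.19 and 8.41 ± 2.2 (adjusted p = 6.26e-05 and 0.0203). Of the 6 named hepatocyte markers, 5 were above background in liver cells (TF, RBP4, HP, HPX and APOE) and the defining one, ALB (albumin), was not. The same 5 were above background on all 8 arrays, so their detection does not mark hepatocytes here. Only TF of these was brighter in liver than in stomach cells (-1.62 against -2.83). TF was higher in iPS than in somatic cells by 2.96 ± 0.43 (adjusted p = 0.00305 in limma), RBP4 was lower by -3.15 ± 0.62 (adjusted p = 0.00838), and HP, HPX and APOE did not pass. Of the 3 gastric markers, ATP4A and PGC were above background in stomach cells and ATP4B, a subunit of the gastric proton pump, was not. ATP4A and PGC were also above background on all 6 ES and iPS arrays, so their detection does not mark gastric cells here. ATP4A was higher in iPS than in somatic cells by 0.73 ± 0.19 (adjusted p = 0.0201 in limma), and PGC did not pass at 0.37 ± 0.17. The named macrophage and blood markers did not move alike. CD14 was lower in iPS than in somatic cells by -3.27 ± 0.42 (adjusted p = 0.00197 in limma) and HBA by -1.03 ± 0.17 (adjusted p = 0.00409). A difference as small as that of HBA depends on the scaling between arrays. The 75th percentile was a signal of 296.9 to 341.5 on the iPS arrays, against 163.8 and 154.8 on the somatic ones. HBB2 did not pass at 1.12 ± 1.8, and CD3E was below background in both somatic cultures and not tested.

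The nearest profiles were sought among 506 named genes, each by its brightest probe, as the root mean square difference over the 8 arrays after each gene's own mean was subtracted. Nearest to DCN were GRO-A at 1.01 and CCL2 at 1.34, both chemokines, followed by CTSE (1.39), IL6 (1.46) and BDKRB1 (1.46). Nearest to MGP were VCAM1 (1.38), a cell adhesion molecule, AOX1 (1.40), TFPI (1.55), CTSE (1.56) and IL6 (1.57). VCAM1, picked by this nearness, resembled MGP in passage and tissue but, unlike MGP, was not detected in ES cells. It was below background on both ES and both early iPS arrays, stood at -3.98 and -3.20 in late iPS-L1 and iPS-S1, and was higher in liver (4.82) than in stomach cells (3.39). TFPI, an inhibitor of coagulation, was also higher late, by 1.70 in iPS-L1 and 1.94 in iPS-S1. The distance between DCN and MGP was 1.93, which placed each as the 13th nearest gene of the other. The DCN probe was below background on all 6 ES and iPS arrays, as were CTSE, IL6 and AOX1, so small differences in these distances and ranks partly order levels at background. All of these genes were higher on both somatic arrays than on average over the ES and iPS arrays, which follows from their choice by nearness to DCN and MGP.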

How the data were processed

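Per the file headers, the deposited intensities came from Agilent Feature Extraction 10.5.1.1 as processed signals on a linear scale, without scaling between arrays. The authors' value table, on a log2 scale, equals the log2 signal scaled to each array's 75th percentile, with every probe's median over the arrays subtracted (r = 1 on every array, column medians -0.042 to 0.342); it served as an alternative. Annotation builds are not given in the sources used here. Symbols came from a RefSeq table of the assembly mOryCun1.1, used only for names: 1933 probes of 680 genes have one. Probes listed by other kinds of accession stayed unnamed, so further DCN or MGP probes may exist.

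Levels are log2 processed signal minus each array's 75th percentile. Spots of a probe were averaged, and 38 probes with an uneven or outlying spot were left out, none of DCN or MGP. No spot was saturated. Tested probes (28844) were well above background on both arrays of at least 1 group. limma 3.58.1 in R 4.3.3 was used, two-sided, with Benjamini-Hochberg adjustment over tested probes and a threshold of 0.05. For the first 3 comparisons the passages of an iPS line were averaged (6 units in 3 groups that share the spread); late against early used all 8 arrays in 4 groups. Scripts were tested on simulated data. A fold is "at least" where every array of the dim group was not well above background: the bright group's mean was set against the mean of, per array, the higher of the probe's own signal and the lowest signal well above background. The number of arrays limits the precision.

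All DCN and MGP probes are described. Other genes are named where they belong to lists of pathway partners or cell type markers, by the probe of highest mean level, or are among the 5 nearest in profile to either gene. Members and lists were chosen with earlier results of these data known. Alternatives were normexp, quantile normalization, no scaling, other filters, the authors' table, each array left out, and blocks by slide and by line. The files hold no mean signal, so normexp (offset 50) used the median signal. Early and late arrays of a line are paired by the line name in the labels; the L1 minus S1 difference at early passage correlated with that at late passage at r = 0.224 over 28844 probes.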

Additional observations from a re-analysis of the deposited data

How the results depend on the processing

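Across 823 recomputed values of single DCN and MGP probes, 778 kept their direction and side of the threshold, 10 lost a call, 1 gained one and 34 changed sign. Every DCN and MGP probe stayed called lower in iPS and in ES than in somatic cells under each alternative that gave it a value. The filter for probes above background on all 8 arrays left 2 MGP probes and no DCN probe. The 10 lost calls are those of A_04_P068850 between passages, and the gained one is its late against ES difference. Leaving out 1 array gave A_04_P068850 4.02 to 4.06 between passages, and its call held without either somatic sample (adjusted p = 0.00892).

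The sign of the iPS minus ES difference of MGP was not stable, and the cause was not tested. With slide as a block the values were -0.44, -0.06, -0.88 and -0.56 for A_04_P002221 to A_04_P002224. With the early arrays alone, added after seeing the data, they were -0.42, -0.04, -1 and -0.72. For A_04_P003776 to A_04_P003780 the late arrays alone gave 1.66, 1.56, 1.74, 1.39 and 1.28. Normexp gave 0.03, 0.07, 0.06 and 0 for A_04_P003776 to A_04_P003779, and quantile normalization 0.01 for A_04_P003778. Leaving out 1 array gave -0.06 to 0.85, -0.28 to 1.52 and -0.13 to 1.35 for A_04_P002221, A_04_P002223 and A_04_P002224. It gave -1.27 to 0.89, -1.45 to 0.80, -1.28 to 0.98, -1.78 to 0.55 and -1.92 to 0.43 for A_04_P003776 to A_04_P003780. All 9 were positive without the early array of either iPS line, and 7 of 9 negative without either late array.

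Counts of called probes moved as follows. Late against early fell from 8 to 0 with no filter, with the all-array filter and with slide as a block, and to 0 with the iPS line as a replicate block. It was 0 to 1 with any 1 array left out, each of the 8 included. iPS against ES went from 0 to 2 with no scaling, 6 with line as a random block, 12 with early and 6 with late arrays alone. iPS against somatic went from 19215 to 9927 with slide as a block. The replicate block changed no other DCN or MGP call. The share of calls that were higher in iPS than in somatic cells was 51.4%, and 33.2% with normexp, 82.5% with no scaling and 38.8% with no filter. For ES it was 53.7%, and 34.0%, 81.5% and 40.1%. Between passages it was 25%, and 66.7% with normexp, 37.5% with quantile and 14.3% with no scaling. The median iPS minus somatic difference over all probes was -0.401 with normexp, 0.115 with quantile and 1.027 with no scaling, against 0.019. Directions held under normexp, quantile, no scaling and the authors' table for liver against stomach cells (6 of 6 DCN and 9 of 9 MGP probes) and for MGP between passages (9 of 9), although normexp reduced the median MGP difference between passages from 3.70 to 0.85 and that of DCN between iPS and somatic cells from -10.96 to -6.35. Levels near background limit DCN in ES and iPS cells and MGP at early passage.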
